A study of Mus musculus with 8 samples.

Results

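The mitochondrial ribosomal proteins were the genes of the deposited mouse liver count table whose symbols begin with Mrpl or Mrps followed by a number. There were 78 such genes among 22183 in the table, 49 with large subunit symbols (Mrpl) and 29 with small subunit symbols (Mrps). The study compared whole liver of Stat3flox/flox mice, called control here, with that of Stat3flox/flox;Alb-Cre mice, called knockout, with 4 libraries in each group. Both groups carried the floxed Stat3 alleles, and both were gavaged every day with 20% alcohol at 15 µL per g for 2 weeks, so genotype under alcohol was the only contrast and no unexposed group was analysed here. Stat3 is a transcription factor of cytokine signalling, and the albumin promoter of Alb-Cre drives Cre recombinase in hepatocytes. Liver cells in which Cre was never active keep their floxed alleles. Neither sex nor age is given in the labels. They number the samples of a group without naming separate animals. Every p-value is therefore a measure of the spread among these samples, which may be technical in part. Y-linked reads, given below, were present in some samples of each group and absent in others.

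Mitochondria have their own ribosome, which translates the few proteins still encoded by mitochondrial DNA, all of them membrane subunits of the oxidative phosphorylation complexes. Its RNAs come from mitochondrial DNA, whereas its proteins are encoded in the nucleus, made in the cytosol and imported. The large subunit joins amino acids and releases the chain at the inner membrane, and the small subunit binds and decodes messenger RNA. Some of the proteins have homologs in bacterial ribosomes and others are found only in mitochondria. Hepatocytes are rich in mitochondria and oxidise both fatty acids and the products of alcohol.

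Libraries held 15998391 to 19474696 estimated counts. Stat3, the targeted gene, was at 75.1, 72.9, 46.8 and 72.1 CPM (counts scaled to the size of the library) in controls 1 to 4 and at 27.3, 25.1, 29.7 and 28.4 CPM in knockouts 1 to 4. Its log2 fold change was −1.27 with an SE of 0.17 and an adjusted p of 0.0469 in edgeR, a call that was lost without any 1 of 6 libraries and kept without control 3 or without knockout 1. All 6 hepatocyte markers were present, albumin (Alb) alone taking 7.46% to 27.3% of counts, and markers of skeletal muscle were under 1 CPM on average in both groups. Controls 1 and 2 and knockout 1 held 1 to 5 counts of the 4 Y-linked genes examined and are called libraries without Y-linked reads, and the other 5 libraries held 294 to 1672. The sum of 6 Kupffer cell markers (Kupffer cells are the resident macrophages of the liver) was 396, 391, 21.1 and 226 CPM in controls 1 to 4 and 36.3 to 70.5 CPM in knockout. In bulk tissue, fewer cells of a type and less RNA per cell cannot be told apart.

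No mitochondrial ribosomal protein gene passed the adjusted threshold, while most of them had a somewhat higher mean in knockout livers, by nearly the same median amount in both subunits. All 78 genes passed the filter on low counts, with 66 to 1958 counts in a library. At an adjusted p under 0.05 in edgeR's test, 0 of 78 were called, and 0.0342% of the 11692 genes tested were called. DESeq2, which called 0.909% of the genes it tested as higher and 1.40% as lower, called 0 of the 78. In limma-voom 0 genes of 11692 were called, those of the mitochondrial ribosome included. At an unadjusted p under 0.05, 7 of 78 were higher in knockout (8.97%), 5 of the large and 2 of the small subunit, where the same held for 5.55% of all genes tested. None was lower at that threshold, where 8.47% of all genes tested were.

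By direction alone, 69 of 78 genes (88.5%) had a log2 fold change above 0, and 46.8% of all genes tested did. The median log2 fold change was 0.22 over the large subunit and 0.23 over the small subunit, against −0.03 over all genes tested. Above 0 were 43 of 49 large subunit genes and 26 of 29 small subunit genes. Single fold changes ran from −0.19 to 0.77 with standard errors of 0.12 to 0.28, so the median shift was about as large as the error of 1 gene. For 51 of 78 genes the difference between the group means was smaller than the SD within control. The groups did not overlap for 2 genes, both higher in knockout, where 3.22% of all genes tested were higher and 3.86% lower without overlap.

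**Figure D1:**
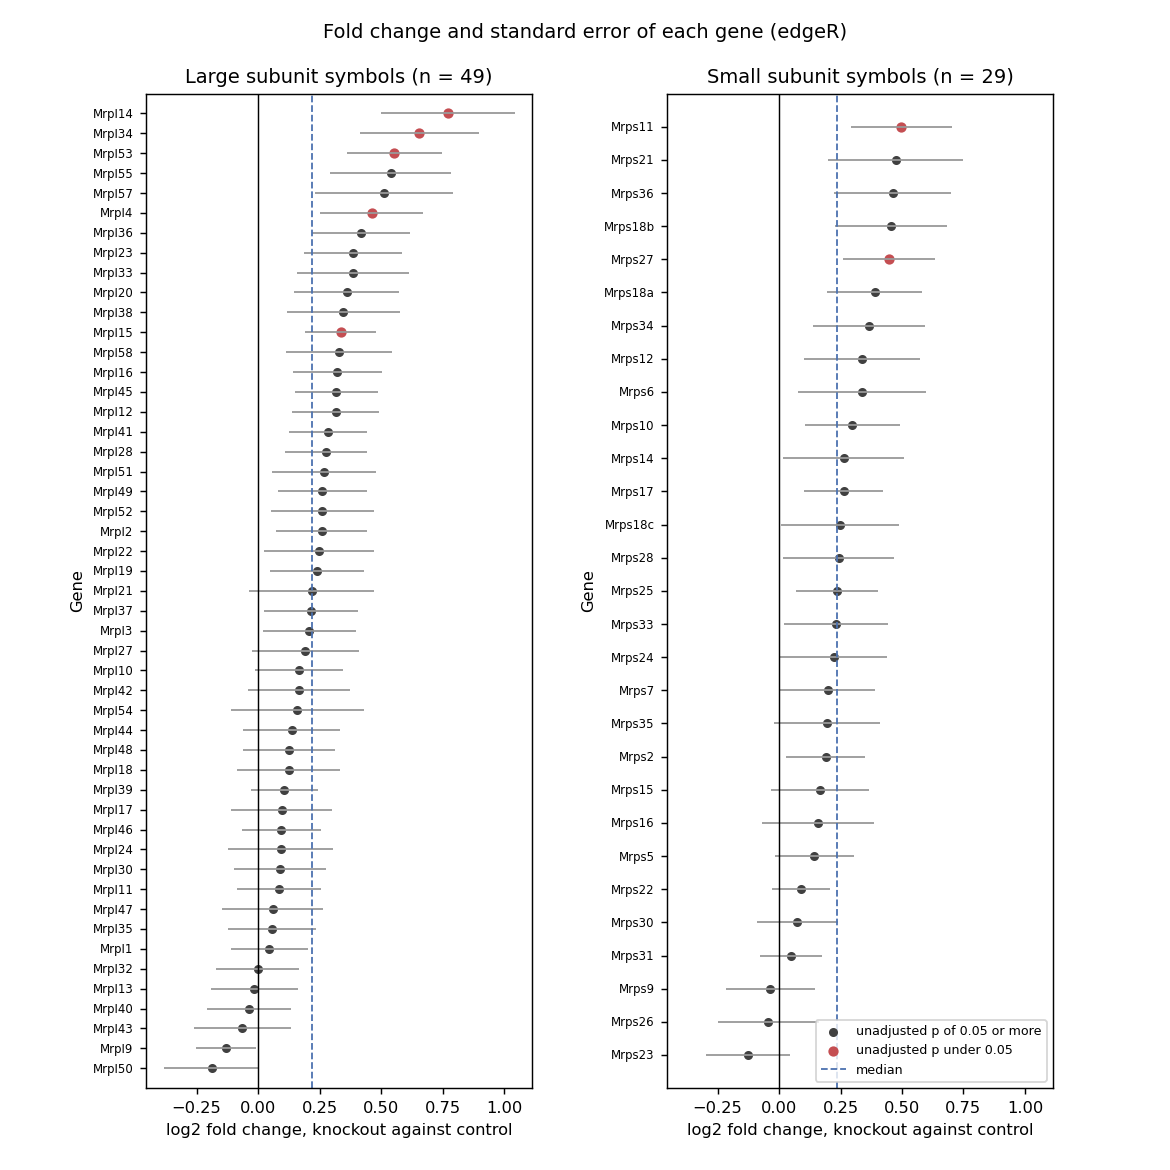
The log2 fold change of each gene (horizontal axis, knockout against control) with its standard error from edgeR, for 49 large and 29 small subunit symbols in order of fold change. The dashed lines mark the medians of 0.22 and 0.23, red points mark the 7 genes with an unadjusted p under 0.05, and 69 of 78 points lie above 0.

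Among large subunit genes with bacterial homologs, Mrpl14 had the highest fold change. Mrpl14 (ENSMUSG00000023939, GRCm38 chromosome 17, 45686322 to 45698495) encodes a protein of the face that meets the small subunit, where the silencing factor Malsu1 binds. It was at 12.2, 13.2, 31.0 and 22.9 CPM in controls 1 to 4 and at 32.0, 38.8, 30.8 and 33.7 CPM in knockouts 1 to 4. Controls 1 and 2 held less than any other library, while control 3 lay within the knockout range. The log2 fold change was 0.77 (SE 0.27, unadjusted p = 0.0165, adjusted p = 0.269 in edgeR). Without control 3 it was 1.07 with an adjusted p of 0.0374 in edgeR, and over the alternatives tried the adjusted p of Mrpl14 ranged from 0.0374 to 0.585.

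Mrpl34 (ENSMUSG00000034880, chromosome 8, 71464959 to 71465747), which encodes a small homolog of a bacterial large subunit protein, was at 8.82, 12.4, 18.2 and 13.8 CPM in control and at 13.8, 23.6, 22.6 and 23.8 CPM in knockout. Knockout 1 stood at the level of control 4, and the other 3 knockout libraries were above every control. Its log2 fold change was 0.66 (SE 0.24, adjusted p = 0.282, edgeR). Mrpl15 (ENSMUSG00000033845, chromosome 1, 4773206 to 4785739) was 1 of the 2 genes whose groups did not overlap. It was at 37.5, 37.5, 46.7 and 46.8 CPM in control and at 48.3, 51.8, 52.9 and 59.8 CPM in knockout, so the gap between the highest control and the lowest knockout was small. Its log2 fold change was 0.34 (SE 0.14, adjusted p = 0.335, edgeR).

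Mrpl4, whose bacterial homolog lines the exit tunnel for the growing chain, was at 8.18, 10.5, 14.7 and 11.6 CPM in control and at 11.6, 15.3, 16.4 and 18.5 CPM in knockout. Knockout 1 again sat among the controls, and the log2 fold change was 0.46 (SE 0.21, adjusted p = 0.356, edgeR). Mrpl23, a homolog of a protein at the mouth of that tunnel, was the other gene without overlap, at 11.6, 18.4, 22.6 and 22.5 CPM in control and 23.8, 26.4, 23.5 and 24.4 CPM in knockout. The knockout libraries differed little from each other, and controls 3 and 4 were about 1 CPM lower than the lowest of them.

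Among the large subunit proteins found only in mitochondria, Mrpl53 had the highest fold change and the smallest p of all 78 genes. Mrpl53 (ENSMUSG00000030037, chromosome 6, 83109040 to 83109939) was at 9.73, 12.4, 16.1 and 16.5 CPM in control and at 16.3, 22.2, 20.4 and 21.4 CPM in knockout. Knockout 1 lay between controls 3 and 4, and the groups overlapped by that library alone. The log2 fold change was 0.55 (SE 0.19, unadjusted p = 0.0151, adjusted p = 0.265 in edgeR). Counts of Mrpl53 were not whole in 7 of 8 libraries, so how its reads were assigned is uncertain. In the annotation used here its exons overlap those of Gm42688 on the same strand by 695 bases, the length of its main transcript.

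In the small subunit, Mrps11 and Mrps27 had unadjusted p-values under 0.05. Mrps11 (ENSMUSG00000030611, chromosome 7, 78783119 to 78792989) is a homolog of a bacterial protein of the platform, beside the path of messenger RNA. It was at 5.59, 6.52, 9.06 and 9.14 CPM in control and at 8.56, 11.8, 11.4 and 11.1 CPM in knockout, with knockout 1 below controls 3 and 4. Its log2 fold change was 0.50 (SE 0.20, adjusted p = 0.321, edgeR). Mrps27 (ENSMUSG00000041632, chromosome 13, 99344786 to 99415562) encodes a pentatricopeptide repeat protein, a class that binds RNA. It was at 15.9, 10.3, 12.6 and 17.0 CPM in control and at 17.9, 16.01, 20.9 and 21.5 CPM in knockout, and here controls 2 and 3 were the low ones. Its log2 fold change was 0.45 (SE 0.19, adjusted p = 0.321, edgeR).

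At the other end of the range, 9 genes had a log2 fold change below 0, and the smallest unadjusted p among them was 0.313 in edgeR. Mrpl50, found only in mitochondria, had the lowest value, −0.19 (SE 0.19). Its levels of 43.2, 57.8, 45.6 and 34.8 CPM in control and 51.9, 35.7, 38.1 and 33.2 CPM in knockout crossed freely. Mrpl9, a homolog of an elongated bacterial protein, was at −0.13 (SE 0.12) and Mrpl43 at −0.06 (SE 0.20). The lowest small subunit values were −0.13 (SE 0.17) for Mrps23, −0.04 (SE 0.21) for Mrps26 and −0.04 (SE 0.18) for Mrps9. The steadiest gene was Mrps22, at 26.1 to 28.9 CPM in control and 27.7 to 29.9 CPM in knockout.

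The paralogs Mrps18a, Mrps18b and Mrps18c, related to 1 bacterial protein and held at different places in the ribosome, had log2 fold changes of 0.39 (SE 0.19), 0.46 (SE 0.23) and 0.25 (SE 0.24). Mrps18c was highest in knockout 1 (28.0 CPM) and lowest in control 2 (13.5 CPM), the library in which Mrps18a was lowest as well. Mrps18b was lowest in control 1 (13.2 CPM), well under the 23.2 to 35.9 CPM of the other 7 libraries. Mrps21, at 0.47 (SE 0.28), and Mrps6, at 0.34 (SE 0.26), had the widest spread within groups among small subunit genes, and Mrpl57 (0.51, SE 0.28) and Mrpl21 (0.22, SE 0.25) were named by the same measure in the large subunit. Mrpl55 (0.54, SE 0.25) had an unadjusted p of 0.0508 in edgeR, just over the threshold.

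Symbols and structures do not match for every protein, so 4 genes with special roles were read singly. In published structures Mrps30 and Mrps18a belong to the large subunit, and Mrps36 is known as a component of the 2-oxoglutarate dehydrogenase complex. Mrps30 had a log2 fold change of 0.07 (SE 0.16) and Mrps36 one of 0.46 (SE 0.24). Mrpl58, which releases chains from stalled ribosomes, averaged 16.1 ± 4.79 CPM in the controls and 20.3 ± 2.98 CPM in the knockouts (mean and SD over 4 libraries each; log2 fold change 0.33, SE 0.22). Mrpl44, which has an RNase III fold, was at 13.3 ± 3.65 and 14.6 ± 0.97 CPM (0.14, SE 0.20). Of 5 ribosomal proteins without an Mrp symbol, Gadd45gip1 (0.34, SE 0.28), Chchd1 (0.24, SE 0.22), Aurkaip1 (0.22, SE 0.22) and Dap3 (0.07, SE 0.16) were above 0, and the messenger RNA binding protein Ptcd3 (−0.19, SE 0.14) was below. With subunits assigned by structure the medians were 0.23 and 0.23.

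Proteins with bacterial homologs and those found only in mitochondria had medians of 0.23 and 0.21 in the large subunit (30 and 19 genes). In the small subunit the medians were 0.26 and 0.14 (18 and 10 genes, Mrps36 set aside). Subunits here follow the symbols, so Mrps18a and Mrps30 were counted in the small subunit. These are descriptions of lists of unequal size, and the difference was not tested.

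Levels per transcript length spanned a wide range in both subunits. Divided by the length of the main transcript, levels ran from 1.59 to 62.3 CPM per kilobase, with a median of 15.7 in the large and 14.1 in the small subunit. In the large subunit the highest were Mrpl12 (62.3), Mrpl42 (58.2) and Mrpl30 (56.1 CPM per kilobase), and the lowest were Mrpl19 (1.59) and Mrpl3 (3.20). Mrpl12 encodes the stalk protein that recruits translation factors, the one protein present in several copies per ribosome. It averaged 73.1 ± 15.8 CPM in the controls and 90.9 ± 7.70 CPM in the knockouts (log2 fold change 0.32, SE 0.18). In the small subunit Mrps21 (42.0), Mrps34 (34.5) and Mrps10 (32.4 CPM per kilobase) were highest, and Mrps26 (1.62) and Mrps25 (3.67) lowest. Long main transcripts belonged to all 4 of the lowest genes, 3972 to 6073 bases, and the transcript that each gene uses in these livers was not measured.

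**Figure D2:**
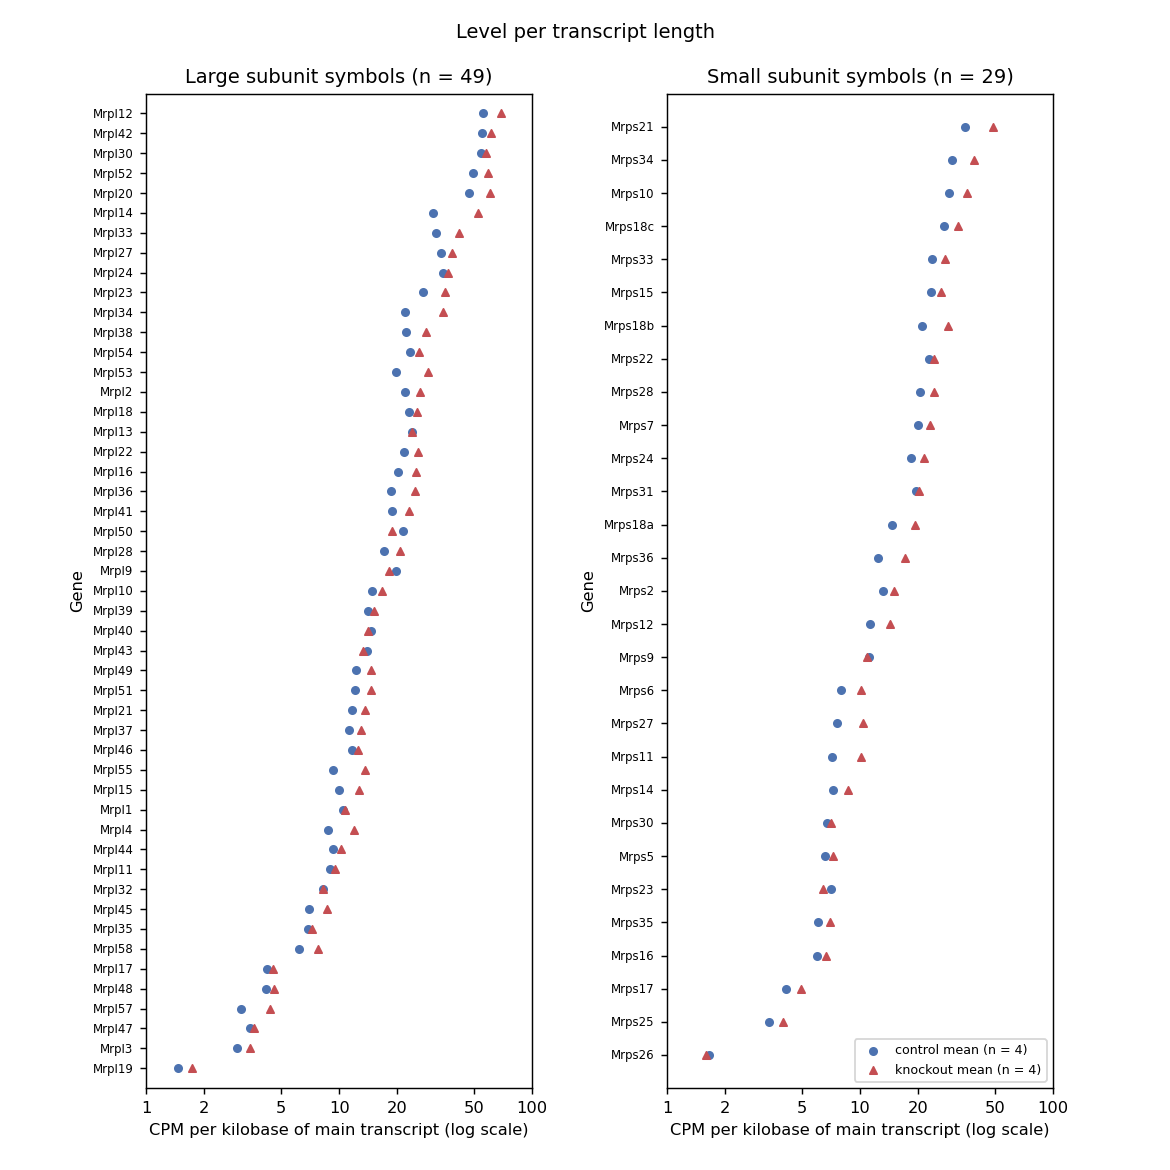
Mean level of each gene in control (circles) and knockout (triangles), in CPM per kilobase of main transcript on a log scale, n = 4 libraries each. The genes run from Mrpl19 at 1.59 to Mrpl12 at 62.3 CPM per kilobase over all libraries, and the group means of 1 gene lie close together beside that range.

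The balance between the subunits was nearly constant. The summed level of large subunit genes was 1.97 to 2.13 times that of small subunit genes in the 8 libraries, 2.08 ± 0.0495 in control and 2.04 ± 0.0550 in knockout (mean ± SD, n = 4 each). The list level, which is the mean over genes of log2 CPM minus each gene's mean over the 8 libraries, differed between the subunits by −0.07 to 0.09 in any library. The medians of the fold changes differed by −0.02 (large minus small), and this difference took either sign among the alternatives tried, from −0.07 to 0.05.

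What varied was the level of both subunits together, and it varied most among the controls. Over all 78 genes the list level was −0.49, −0.20, 0.20 and −0.02 in controls 1 to 4 and −0.01, 0.27, 0.11 and 0.14 in knockouts 1 to 4. Control 3 thus lay above 3 of 4 knockout libraries, and control 1 lay below all others. As a share of all counts the 78 genes took 0.160%, 0.14%, 0.204% and 0.203% in control and 0.190%, 0.204%, 0.199% and 0.203% in knockout. On that scale control 4 was level with the knockouts, controls 1 and 2 were low, and control 2 rather than control 1 was the lowest. The TMM scaling factors behind the CPM values were 1.19 for control 1 and 0.853 for control 2, the highest and lowest of the 8 libraries. The list level was −0.13 ± 0.29 in control and 0.13 ± 0.12 in knockout (mean ± SD, n = 4 each), so the difference of 0.25 was smaller than the SD of the controls.

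**Figure D3:**
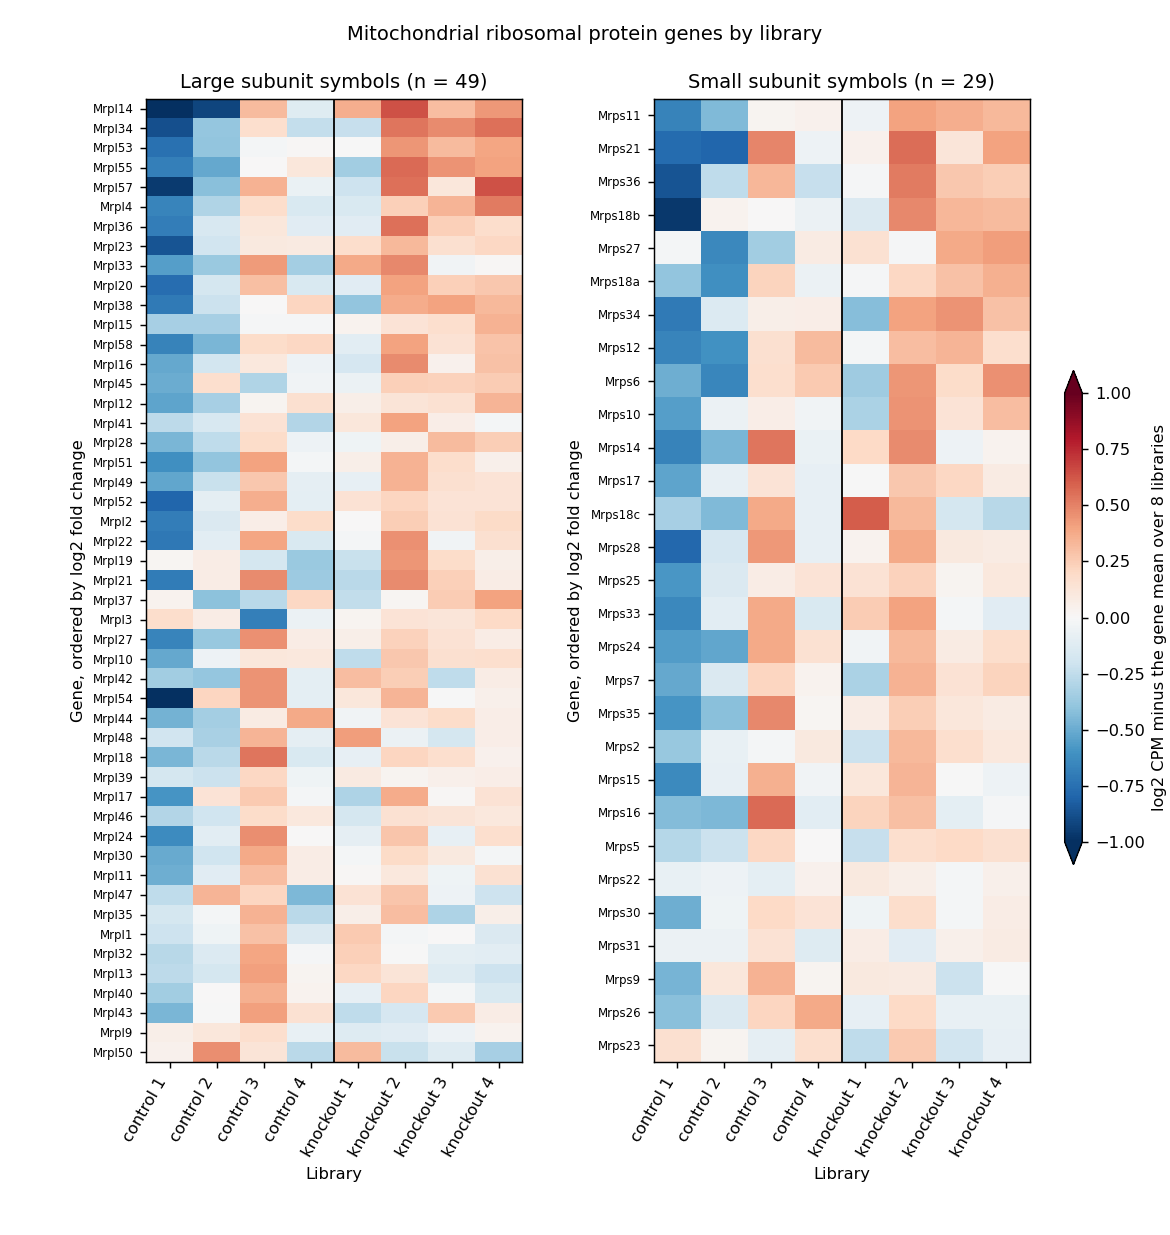
Level of each gene in each library as log2 CPM minus the gene's mean over the 8 libraries, with 49 large subunit symbols on the left and 29 small subunit symbols on the right, ordered by fold change. The color scale ends at ±1, and the vertical line parts control from knockout. The control 1 column is mostly blue, with 57 of 78 genes lowest there, and the columns of control 3 and knockout 2 are the reddest.

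Control 1 carried much of the shift. It was the lowest library for 57 of 78 genes (73.1%), where it was the lowest for 20.5% of all genes tested. It was below every knockout library for 70 of 78 genes, where this held for 31.4% of all genes tested. Control 3 was the highest library for 29 of 78 genes and knockout 2 for 27, where they were the highest for 15.4% and 13.2% of all genes tested. Without control 1, the medians were 0.10 over the large and 0.11 over the small subunit, 61 of 78 genes were above 0 and 4 were higher at an unadjusted p under 0.05 in edgeR, where 4.63% of all genes tested were. Without control 3, the medians were 0.38 and 0.41, and 30 of 78 genes were higher at an unadjusted p under 0.05 in the same test, where 9.30% of all genes tested were. At an adjusted p under 0.05 that fit called 324 of 11902 genes, and Mrpl14 was the 1 ribosomal protein gene among them. Without knockout 1, 16 of the 78 genes were higher at an unadjusted p under 0.05 (7.58% of all genes tested). Without control 2 or control 4 there were 4 and 9 (4.70% and 6.34% of all genes tested). Without knockout 2, 3 or 4 there were 3, 3 and 2 (3.20%, 3.81% and 3.29% of all genes tested), which is near the share over all genes.

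Transcripts of Y-linked genes split the controls in the same way as the ribosomal protein genes did. Controls 1 and 2, without Y-linked reads, had list levels of −0.49 and −0.20, and controls 3 and 4, with them, 0.20 and −0.02. Knockout 1, the only knockout library without Y-linked reads, was the lowest of its group at −0.01. Within the 3 libraries without Y-linked reads, knockout 1 was above both controls for 55 of 78 genes, where this held for 32.8% of all genes tested. Within the 5 libraries with Y-linked reads, all 3 knockouts were above both controls for 17 of 78 genes, where this held for 16.7% of all genes tested. Fitted on those 5 libraries alone, the medians were 0.08 over the large and 0.03 over the small subunit, 45 of 78 genes were above 0 and 24 changed sign. In that fit 8 of 78 genes were higher at an unadjusted p under 0.05 in edgeR, where 7.21% of all genes tested were, and 0 were lower. With a term for Y-linked reads over all 8 libraries, the medians were 0.17 and 0.17, 0 genes were called at an adjusted p under 0.05, and 6 genes were higher at an unadjusted p under 0.05 in edgeR (5.60% of all genes tested) and 0 were lower (6.87%). The Kupffer marker sum was also highest in controls 1 and 2. Lymphocyte markers summed to 10.2 to 21.7 CPM in control and 29.8 to 441 CPM in knockout. Most of the knockout sum was Ighm, at 5.73 CPM on average in control and 161 CPM in knockout. Cd79a also had a higher mean in knockout, while Cd3e, Nkg7 and Ptprc had lower means. At an unadjusted p under 0.05 in edgeR, 6 of 6 Kupffer cell markers were lower in knockout, where 8.47% of all genes tested were. Of the stellate cell markers, 3 of 5 were higher at that threshold, where 5.55% of all genes tested were. The part of these cell markers in the result was not tested.

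**Figure D4:**
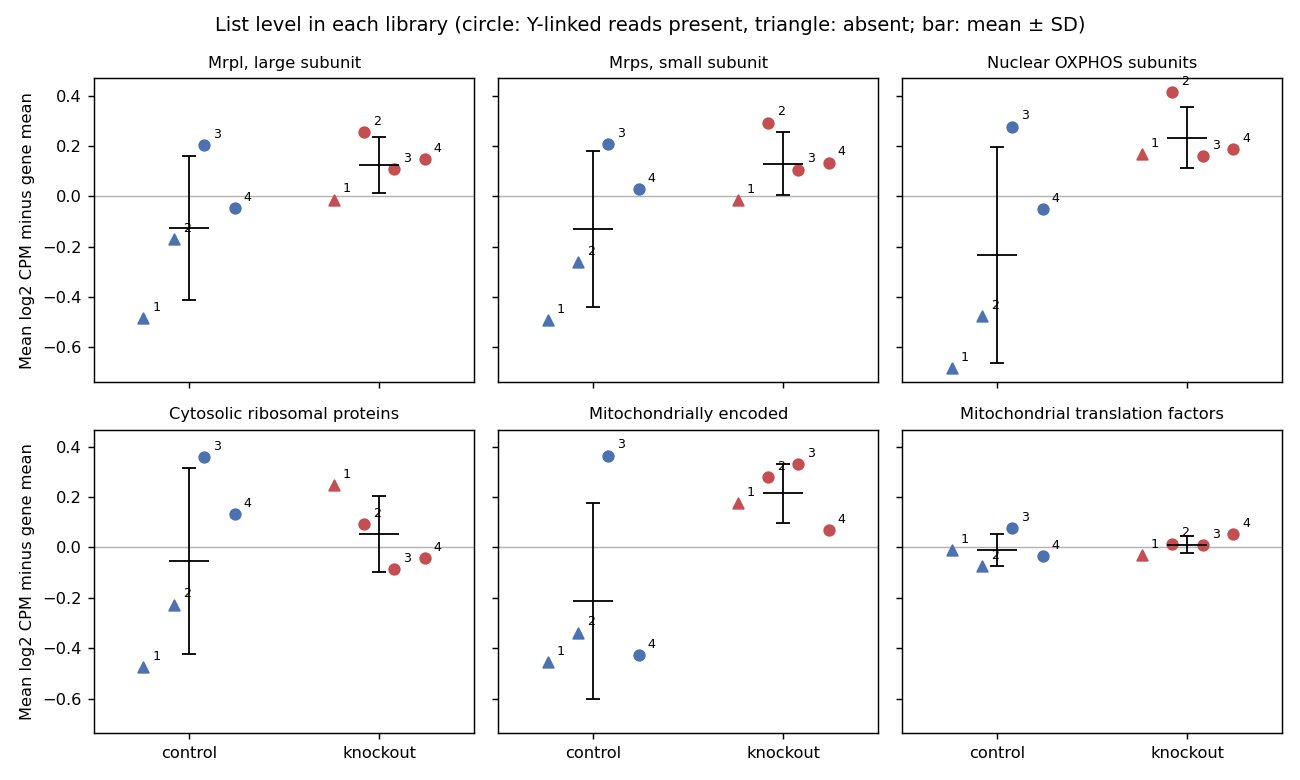
List level in each library (mean over genes of log2 CPM minus the gene's mean over 8 libraries) for both ribosomal subunits and 4 related lists, with the library number beside each point and mean ± SD bars, n = 4 per group. Both subunits have the same order of libraries at the ends, from −0.48 and −0.49 in control 1 to 0.25 and 0.29 in knockout 2, and the translation factors stay within 0.08 of 0.

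Ribosomal protein transcripts are short, and short transcripts as a class had the same libraries low. The main transcripts of the 78 genes had a median of 1302 bases, against 3002 bases over all genes tested. Among genes outside the 78, the median log2 fold change was 0.25 for main transcripts under 1000 bases, 0.11 for 1000 to 2000, −0.04 for 2000 to 4000 and −0.15 over 4000 bases. In the same order of classes, the ribosomal protein genes had medians of 0.34 (25 genes), 0.21 (28), 0.13 (16) and 0.20 (9). The ribosomal protein genes had the higher median in each of the 4 classes, a difference that was not tested. All 25 ribosomal protein genes under 1000 bases were above 0, where 76.4% of the other genes of that length were.

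Control 1 followed length most closely. Its median difference from the mean of the 8 libraries was −0.55, −0.27, 0.02 and 0.26 from the shortest to the longest class of other genes. The ribosomal protein genes stood at −0.69, −0.49, −0.41 and −0.41 there, so the long ones among them were low in control 1 while other long genes were high. For the 25 genes with main transcripts of 2000 bases or more, the medians of the fold changes were 0.12 over the large and 0.19 over the small subunit. The length classes were chosen after the values were seen, and the part of transcript length in the result was not tested.

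**Figure D5:**
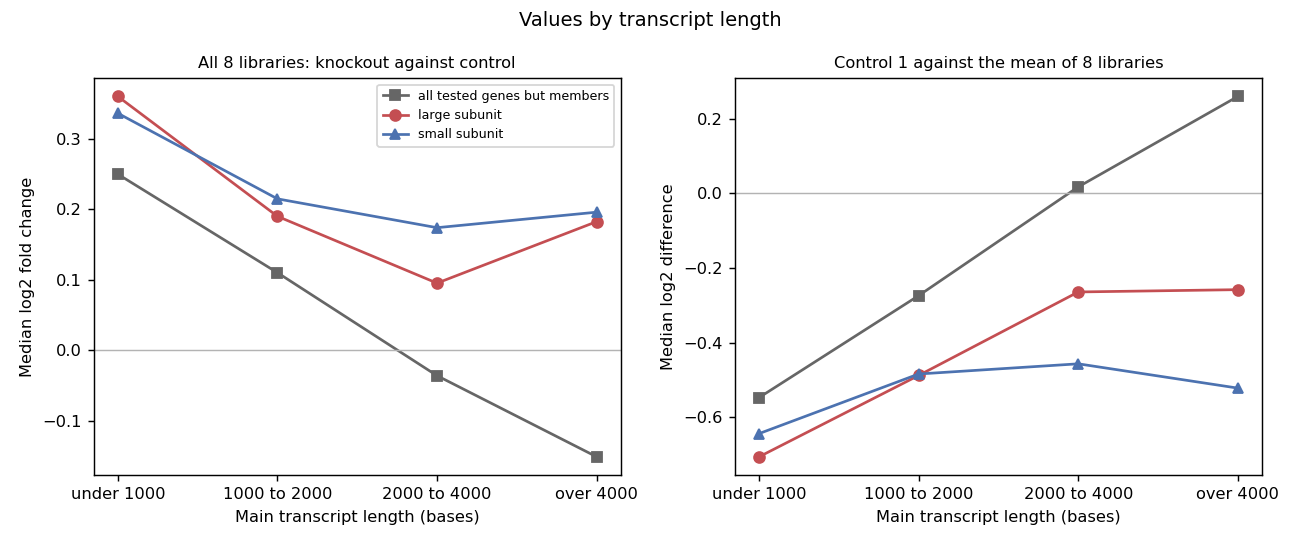
Median log2 fold change between groups (left) and median log2 difference of control 1 from the mean of 8 libraries (right) by length of the main transcript in bases, for large subunit genes, small subunit genes and all other genes tested. On the left the other genes run from 0.25 to −0.15, and on the right from −0.55 to 0.26, while both subunits stay above 0 on the left and below 0 on the right.

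The partners of these proteins in mitochondrial gene expression were read from lists of 7 kinds. Over all genes tested, 46.8% were above 0, and 5.55% were higher and 8.47% lower at an unadjusted p under 0.05 in edgeR. Of 27 genes for assembly of the mitochondrial ribosome and modification of its RNA, 19 were above 0 with a median of 0.13. At that threshold 1 was higher and 1 lower. The higher one was Mettl17, an assembly factor of the small subunit, at 2.15, 2.48, 2.98 and 3.40 CPM in control and 4.33, 4.19, 4.33 and 6.04 CPM in knockout, without overlap (log2 fold change 0.78, SE 0.24, adjusted p = 0.226, edgeR). The lower one was Rpusd4, which modifies the large ribosomal RNA, at 5.21, 4.68, 4.95 and 5.99 CPM in control and 4.33, 3.51, 3.07 and 3.28 CPM in knockout (−0.55, SE 0.20, adjusted p = 0.280, edgeR). Mettl17 was lowest in control 1 and Rpusd4 in knockout 3. The 16 translation factors had a median of 0.01 and 0 at that threshold, and Tufm, the elongation factor that brings aminoacyl-tRNA, was at 56.3 ± 8.81 and 63.0 ± 6.59 CPM (mean ± SD, n = 4 each).

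The median was 0.06 over 20 genes of mitochondrial aminoacyl-tRNA synthesis, of which 2 were higher at an unadjusted p under 0.05 (Cars2, 0.47, SE 0.19, and Qrsl1, 0.85, SE 0.35). Over 23 tested genes of mitochondrial transcription, replication and RNA processing it was 0.05, with 1 higher (Supv3l1, a helicase of RNA decay, 0.38, SE 0.15). Over all genes tested, 5.55% were higher at that threshold. The 10 transcriptional regulators of mitochondrial biogenesis lay mostly on the other side of 0, with 9 of 10 below it and a median of −0.34. Of them, 2 were lower at an unadjusted p under 0.05 in edgeR (Ppargc1a and Gabpb2) and 1 was higher (Esrra). The shares over all genes tested were 8.47% and 5.55%. Main transcripts over 4000 bases belong to Ppargc1a, Gabpb2, Yy1, Pprc1 and Gabpa. Genes of that length outside the mitochondrial ribosome had a median of −0.15, with 31.3% above 0. Myc, Nrf1, Gabpb1 and Ppargc1b, with shorter ones, were below 0 as well. The part of transcript length here was not tested. Ppargc1a, a coactivator of mitochondrial genes, was at 12.5, 8.01, 14.0 and 8.54 CPM in control and 6.39, 3.99, 5.72 and 3.96 CPM in knockout. Its groups did not overlap and its log2 fold change was −1.10 (SE 0.25), with an adjusted p of 0.126 in edgeR and 0.00730 in DESeq2. Esrra, a nuclear receptor that acts with it, was the gene above 0 (0.51, SE 0.21, adjusted p = 0.320, edgeR).

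The messenger RNAs that the mitochondrial ribosome translates, and those of the nuclear partner subunits, all had log2 fold changes above 0. Control 3 was nevertheless high for both lists. Its list level was 0.36 for the mitochondrially encoded genes, above the knockout range of 0.07 to 0.33. For the nuclear subunits it was 0.28, within the knockout range of 0.16 to 0.41. All 13 mitochondrially encoded messenger RNAs had log2 fold changes above 0, with a median of 0.42, and 3 had an unadjusted p under 0.05 in edgeR (mt-Nd5, mt-Nd6 and mt-Co1). The groups of mt-Nd5 and mt-Co1, 2 of 13, did not overlap, where 3.22% of all genes tested were higher without overlap. The adjusted p of mt-Nd5 was 0.227 in edgeR and 0.0270 in DESeq2, and that of mt-Co1 was 0.341 in edgeR and 0.0858 in DESeq2. All 80 tested nuclear subunits of oxidative phosphorylation were above 0 with a median of 0.42. At an unadjusted p under 0.05 in edgeR, 22 of them (27.5%) were higher. Over all genes tested, 46.8% were above 0 and 5.55% were higher at that threshold. The 80 tested cytosolic ribosomal proteins had a median of 0.08, with 56 above 0 and none past an unadjusted p of 0.05. The median of the mitochondrial ribosomal proteins thus lay between those of the cytosolic ribosome and of the complexes that its products enter. These lists share the same 8 libraries, and control 1 had the lowest list level in all of them except the translation factors and the regulators of biogenesis.

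The 78 genes lie on 17 chromosomes and often start beside another gene. Within 1000 bases of the start of 33 of 78 genes (42.3%) a protein-coding gene starts on the opposite strand, head to head, and the same was true of 10.8% of the protein-coding genes of the table. This held for 24 of 49 Mrpl genes and 9 of 29 Mrps genes. Mrpl46 and Mrps11, of different subunits, form such a pair with starts that overlap by 412 bases, and their log2 fold changes were 0.09 (SE 0.16) and 0.50 (SE 0.20). Mrps12 starts 172 bases from Sars2, the mitochondrial seryl-tRNA synthetase, with log2 fold changes of 0.34 (SE 0.24) and 0.18 (SE 0.25). Mrpl36 and Ndufs6, a subunit of complex I, had values of 0.42 (SE 0.20) and 0.54 (SE 0.21). Of 29 partners tested, 17 were above 0, where 46.8% of all genes tested were. At an unadjusted p under 0.05 in edgeR 2 were higher, Ndufs6 and Mrps11, where 5.55% of all genes tested were. Mrps11 and Mrpl46 are themselves among the 78 genes and were counted here as partners of each other. Exons of 17 of 78 genes overlap those of another protein-coding gene, 15 of them on the opposite strand, and since the sources used here do not say whether counting used strand, the division of reads between such genes is uncertain.

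Promoters are shown for genes of both subunits that stood highest and for Mrps12 of a head-to-head pair. Each is the RefSeq window of 300 bases, 250 before and 50 after the start on GRCm38.p6, written 5′ to 3′ along the gene. Capitals mark the letters CCGGAAG (an ETS motif, bound by GABP), GCATGCGC (NRF1) and AAGATGG (YY1) on either strand, so that CTTCCGG and CCATCTT are the same letters read on the other strand.
Mrpl14, chr17:45686099-45686398, plus strand: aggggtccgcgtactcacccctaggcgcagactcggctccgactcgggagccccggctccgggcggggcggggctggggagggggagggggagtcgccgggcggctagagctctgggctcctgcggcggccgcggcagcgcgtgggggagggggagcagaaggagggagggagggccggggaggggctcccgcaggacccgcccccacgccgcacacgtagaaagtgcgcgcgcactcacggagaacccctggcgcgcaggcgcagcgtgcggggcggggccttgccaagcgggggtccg
Mrpl53, chr6:83108858-83109157, plus strand: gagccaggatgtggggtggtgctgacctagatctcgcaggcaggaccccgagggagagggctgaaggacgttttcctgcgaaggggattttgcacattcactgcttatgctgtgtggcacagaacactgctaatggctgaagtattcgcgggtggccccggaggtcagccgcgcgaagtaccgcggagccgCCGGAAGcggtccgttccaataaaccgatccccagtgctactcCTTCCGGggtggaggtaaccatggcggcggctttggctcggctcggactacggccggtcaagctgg
Mrpl34, chr8:71464676-71464975, plus strand: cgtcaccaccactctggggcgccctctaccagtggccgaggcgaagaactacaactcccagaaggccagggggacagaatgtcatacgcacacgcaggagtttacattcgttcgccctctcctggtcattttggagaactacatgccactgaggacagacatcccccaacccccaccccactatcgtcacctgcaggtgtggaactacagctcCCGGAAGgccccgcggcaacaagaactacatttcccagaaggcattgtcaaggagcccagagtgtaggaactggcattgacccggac
Mrps11, chr7:78782881-78783180, plus strand: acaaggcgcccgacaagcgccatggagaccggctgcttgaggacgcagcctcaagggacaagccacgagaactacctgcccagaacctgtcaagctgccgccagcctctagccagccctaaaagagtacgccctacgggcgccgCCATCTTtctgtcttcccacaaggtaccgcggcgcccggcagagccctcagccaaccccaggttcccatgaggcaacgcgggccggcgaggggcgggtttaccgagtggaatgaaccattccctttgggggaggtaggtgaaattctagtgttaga
Mrps12, chr7:28741772-28742071, minus strand: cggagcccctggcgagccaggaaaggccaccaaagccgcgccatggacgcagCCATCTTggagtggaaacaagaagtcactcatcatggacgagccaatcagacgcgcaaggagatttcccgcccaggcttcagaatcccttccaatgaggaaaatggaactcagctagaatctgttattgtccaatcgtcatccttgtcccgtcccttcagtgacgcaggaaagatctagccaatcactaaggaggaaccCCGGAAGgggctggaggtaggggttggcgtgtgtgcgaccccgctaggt

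Factors of the ETS family, NRF1 and YY1 are known as regulators of nuclear genes for mitochondrial proteins. Of the 78 genes, 69 had a window and 3 of these had several, 75 windows in all. Letters of the ETS motif were in 34.7% of the 75 windows, against 17.2% of the windows of all genes tested and 8.86% of all windows. For NRF1 the shares were 10.7%, 5.05% and 2.71%, and for YY1 17.3%, 7.03% and 6.34%. In the first window of 36 of 69 genes at least 1 of the 3 motifs was found, a share that was not computed for other genes. Mrpl53 held the ETS letters on both strands, Mrpl34 held them once, Mrps12 held both ETS and YY1 letters, Mrps11 held YY1 letters, and Mrpl14 held none of the 3.

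The shares of other motifs lay nearer to those of the genes tested. The STAT motif TTCNNNGAA was in 8.0% of the 75 windows, against 6.94% for genes tested and 8.30% for all windows, and it was found for Mrpl30, Mrpl34, Mrpl42, Mrpl50, Mrps22 and Mrps25. The SP1 letters GGGCGG were in 52.0%, 61.0% and 35.7%, and CCAAT in 40.0%, 37.6% and 37.4%. Matches overlap where motifs share letters, and they describe sequence alone. The 9 genes without a window were Mrpl13, Mrpl15, Mrpl19, Mrpl38, Mrpl4, Mrpl54, Mrps28, Mrps34 and Mrps35.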

How the data were processed

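Per the labels' protocols, liver was frozen, RNA extracted with Trizol and libraries run on an Illumina instrument. The submitters' processing notes list CASAVA 1.8, Bowtie, TopHat2 and the build GRCm38. The sources used here name no counting program, annotation or strand setting. Values in the single deposited table are estimated counts without normalization, and 94.2% of them were whole numbers. The 10 ribosomal protein genes with values that were not whole (among them Mrpl53, Mrpl43, Mrps34 and Mrps25) are uncertain in how reads were divided, and 5 pseudogenes with an Mrp symbol are annotated.

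Counts were rounded, filtered by filterByExpr, scaled by TMM and tested across all 11692 genes with the quasi-likelihood F-test of edgeR 4.0.16 in R 4.3.3, with Benjamini-Hochberg adjustment over all of them. SE is the fold change divided by the root of F. CPM uses the TMM-scaled library size, and log2 levels a prior count of 2. Per-kilobase levels use the principal transcript of GENCODE M21, in which all 78 identifiers were found and which gave coordinates, exon overlaps and neighbouring starts. No test over a list was made. The procedure was tested on simulated data. Depth of 15998391 to 19474696 counts gave at least 66 counts for each ribosomal protein gene, and errors cover the spread of 4 samples per group.

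The genes and lists were chosen with earlier results of these data known. Genes named were Stat3; in each subunit those with the 6 smallest p, the 3 highest and 3 lowest fold changes, the 3 highest and 2 lowest levels per kilobase and the 2 largest SDs; genes with special roles; and up to 4 of each related list, of which the text gives some. Mrpl23, Mrpl36, Mrpl46, Mrps12, Mrps22, Sars2, Ndufs6 and Alb were picked with their values in view. Libraries within a group were checked for duplicates by a chi-square statistic over genes with at least 10 counts, whose median was lowest for knockouts 3 and 4 (1.26), above sampling noise. A library had Y-linked reads when Ddx3y, Eif2s3y, Kdm5d and Uty summed to over 10 counts. Alternatives were other scalings, filters, DESeq2 1.42.0, limma-voom (limma 3.58.1), robust dispersions, a replicate block, libraries left out, Y-linked reads as a term, subunits by structure and, chosen after seeing the data, long transcripts alone.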

Additional observations from a re-analysis of the deposited data

Results flagged for a closer look

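In 74 groups of 4 values examined (Stat3, the named ribosomal protein genes and the list levels of the subunits, each group in turn), 4 held 1 library far from the other 3, and chance alone flags about 1 in 20 groups. Stat3 was at 46.8 CPM in control 3 and at 72.1 to 75.1 CPM in the other controls. Mrpl34 was at 13.8 CPM in knockout 1, against 22.6 to 23.8 CPM in the other knockouts. Mrps18b was at 13.2 CPM in control 1, against 24.7 to 26.5 CPM in the other controls. Mrps26 was at 7.84 CPM in knockout 2, against 6.44 to 6.51 CPM in the other knockouts, a small difference in level.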

How the results depend on the processing

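The medians of both subunits were above 0 in every alternative tried, from 0.08 to 0.38 over the large and from 0.03 to 0.41 over the small subunit, and 0 members were lower at an unadjusted p under 0.05 in any of them. The count of called members was 0 in every alternative except without control 3, where it was 1 of 324 calls among 11902 genes, so with libraries left out in turn it ranged from 0 to 1. In limma-voom, in the replicate block and without control 4 or knockout 2, 3 or 4, 0 of all genes tested were called. The count higher at an unadjusted p under 0.05, which was 7, was 2 to 30 with each library left out in turn (3.20% to 9.30% of all genes tested), 17 with the replicate block (6.98%) and 24 without controls 2 and 3 (8.03%). The difference of the medians, large minus small, was −0.0456 to 0.0447 with libraries left out, 0.0457 on the libraries with Y-linked reads alone and −0.0737 for main transcripts of 2000 bases or more. The cause was not tested. Stat3 lost its call with nuclear genes alone (−1.26, adjusted p = 0.0501), in limma-voom (−1.25, adjusted p = 0.0670) and in the replicate block (−1.25, adjusted p = 0.107, edgeR), and it ranged from −1.41 to −1.20 with libraries left out. Correlations of deviations between samples with the same number were 0.32, −0.25, 0.09 and 0.18. Controls 1 and 4 correlated best with the knockout of their own number, and controls 2 and 3 with another. With 4 samples per group this check cannot decide whether samples of the same number were paired. Each of the 78 genes had at least 66 counts in every library.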
